A study of Mus musculus with 9 samples.

Results

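The transcripts of 36 aminoacyl-tRNA synthetase genes were examined in B16 cells, a mouse melanoma cell line, by RNA sequencing. The genes were taken by symbol, as the known members of this enzyme family, and comprised 20 genes of cytosolic enzymes and 16 of mitochondrial enzymes, the latter carrying the suffix 2. All 36 symbols were found among the 22972 gene names of the deposited tables, and all 36 had a mean of at least 1 FPKM, as did 10109 genes in all. FPKM is the number of sequenced fragments assigned to a gene per kilobase of transcript and per unit of sequencing depth, so that levels of different genes can be set side by side per length.

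The 9 libraries fell into 3 groups of 3, all from wild-type B16 cells grown in DMEM with serum on flexible PDMS film and collected on day 3. The CTL group was labelled as control. The MS group was strained cyclically for 72 h through stretching of the film. The third group received blebbistatin, a myosin inhibitor, at 100 ng/mL for 72 h. The sample labels name blebbistatin alone for this group, whereas the paper names straining as well, and the paper's name, MS + Blebb., is kept. Libraries are named by group and replicate, such as CTL 1. The labels call the replicates parallel experiments, and nothing more says that they came from separate cultures, so p-values measure the spread between these libraries only. In such bulk RNA, fewer cells and less RNA per cell cannot be told apart.

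Aminoacyl-tRNA synthetases join each amino acid to its tRNA and so set the meaning of the genetic code. Cytosolic and mitochondrial ribosomes are served by separate sets of enzymes, all encoded in the nucleus, except that Gars (glycine) and Kars (lysine) each supply both compartments from a single gene. Several cytosolic enzymes, namely those for aspartate, glutamate and proline (both in the Eprs protein), isoleucine, lysine, leucine, methionine, glutamine and arginine, assemble with scaffold proteins into the multisynthetase complex. Many cytosolic synthetase genes are also known targets of ATF4, the transcription factor of the integrated stress response, which raises amino acid supply when amino acids run short or the endoplasmic reticulum is stressed.

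ATF4 binds the C/EBP-ATF response element, and its core, TGATGNAA on either strand, was looked for in the promoter windows of RefSeq (build GRCm38.p6), which hold 250 bases before and 50 bases after a gene's start. A window was given for 27 of the 36 genes, 13 cytosolic and 14 mitochondrial, and for none of Cars, Hars, Lars, Nars, Rars, Vars, Wars, Hars2 and Pars2. The core lay in 5 of the 13 cytosolic windows (Aars, Gars, Iars, Tars and Yars) and in 0 of the 14 mitochondrial windows, and 4.51% of the windows of 27025 genes held it. It lay before the start in 3 of the 13 cytosolic windows (Aars, Gars and Tars) and in 0 of the 14 mitochondrial windows. This compares with 3.91% of all genes, where 1056 of the 1219 windows with a core held it before the start. These stretches are shown because they mark 3 genes of the set with a core upstream, among them Aars and Gars, described below. They are written 5′ to 3′ along the gene's strand, with the core in capitals in its reverse form TTNCATCA. The Aars stretch lies at chr8:111033694-111033773 (+ strand) with the first base of the core at position −112 from the RefSeq start, the Gars stretch at chr6:55037935-55038000 (+ strand) with the core at −30, and the Tars stretch at chr15:11399659-11399709 (− strand) with the core at −15. The Aars stretch lies inside the gene as GENCODE M21 bounds it, which begins upstream of the RefSeq start.
Aars: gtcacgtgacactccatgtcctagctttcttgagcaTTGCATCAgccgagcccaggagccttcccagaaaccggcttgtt
Gars: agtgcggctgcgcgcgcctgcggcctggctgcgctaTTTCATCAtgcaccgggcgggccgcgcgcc
Tars: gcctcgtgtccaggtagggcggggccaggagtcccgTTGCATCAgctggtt
The Aars stretch also holds 1 E-box, CACGTG, the binding motif of MYC and other basic helix-loop-helix factors. E-boxes lay in the whole windows of 4 of 13 cytosolic and 1 of 14 mitochondrial genes, against 8.09% of all genes. The CCAAT box, searched as CCAAT or ATTGG, lay in 7 of 13 cytosolic and 6 of 14 mitochondrial windows, against 41.1% of all genes. The E-box reads the same on both strands, the 3 stretches hold 0 CCAAT boxes, and the E-box of Aars shares no letter with the core. A match shows only that these letters are present.

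The columns summed to between 439939 and 484093 FPKM, and 9529 to 10388 genes per library were at 1 FPKM or more. The number of reads is unknown. Melanocyte genes were abundant, with the 7 markers summing to between 7444 and 12933 FPKM per library. The 6 fibroblast markers summed to at most 0.567 FPKM with 2 of them at 0 throughout, the 5 keratinocyte markers to at most 0.0314 FPKM with 3 at 0, and the 5 macrophage markers to between 1.59 and 2.84 FPKM, most of it Cd68, with Ptprc at 0. CTL 1, MS 3 and MS + Blebb. 2, which belong to different groups, stood apart from the other libraries in genes of the integrated stress response. Atf4 was 337, 126 and 132 FPKM in CTL 1 to 3, 143, 129 and 280 FPKM in MS 1 to 3, and 174, 319 and 141 FPKM in MS + Blebb. 1 to 3. Of the 12 genes listed for this response, 9 had exactly these 3 libraries as their highest, against 15.8% of all genes. These 3 libraries were singled out with earlier results of these data known, so the count describes them and is no test. The 9 libraries also differed in how levels followed the GC content of the transcripts, as described below.

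Cytosolic synthetase transcripts were far more abundant than mitochondrial ones in all 9 libraries. The 20 cytosolic genes summed to 1769, 1264 and 1355 FPKM in CTL 1 to 3, to 1450, 1230 and 1648 FPKM in MS 1 to 3, and to 1456, 1679 and 1314 FPKM in MS + Blebb. 1 to 3. The 16 mitochondrial genes summed to 159, 166 and 165 FPKM in CTL 1 to 3, to 155, 166 and 154 FPKM in MS 1 to 3, and to 176, 168 and 167 FPKM in MS + Blebb. 1 to 3. The mitochondrial sum was therefore steadier than the cytosolic one, and the cytosolic sum was highest in CTL 1, MS + Blebb. 2 and MS 3. The ratio of the sums was 11.1, 7.59 and 8.20 in CTL, 9.35, 7.42 and 10.7 in MS, and 8.29, 10.0 and 7.85 in MS + Blebb., in the order of the replicates. Its group means were 8.97 ± 1.89 in CTL, 9.15 ± 1.65 in MS and 8.72 ± 1.14 in MS + Blebb. (SD, n = 3), so that the groups differed by less than the spread within each of them.

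Much of the variation in the cytosolic sum came from a pair of genes. Sars (serine) and Gars were the 2 members with a mean above 100 FPKM and made up between 33.4% and 49.6% of the cytosolic sum. Without them the cytosolic sum was 872 ± 50.9 FPKM in CTL, 905 ± 82.0 in MS and 870 ± 24.7 in MS + Blebb. (SD, n = 3). A measure in which every gene weighs the same gave a different order of libraries. Each gene's difference from its own mean over the 9 libraries was taken on the log2(FPKM + 1) scale, and the median over the mitochondrial genes was subtracted from the median over the cytosolic genes. The result was 0.12, −0.15 and 0.06 in CTL 1 to 3, 0.11, −0.14 and 0.37 in MS 1 to 3, and −0.13, −0.20 and −0.01 in MS + Blebb. 1 to 3. It was highest in MS 3 and below 0 in each MS + Blebb. library and in CTL 2 and MS 2, and the groups overlapped.

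**Figure D1:**
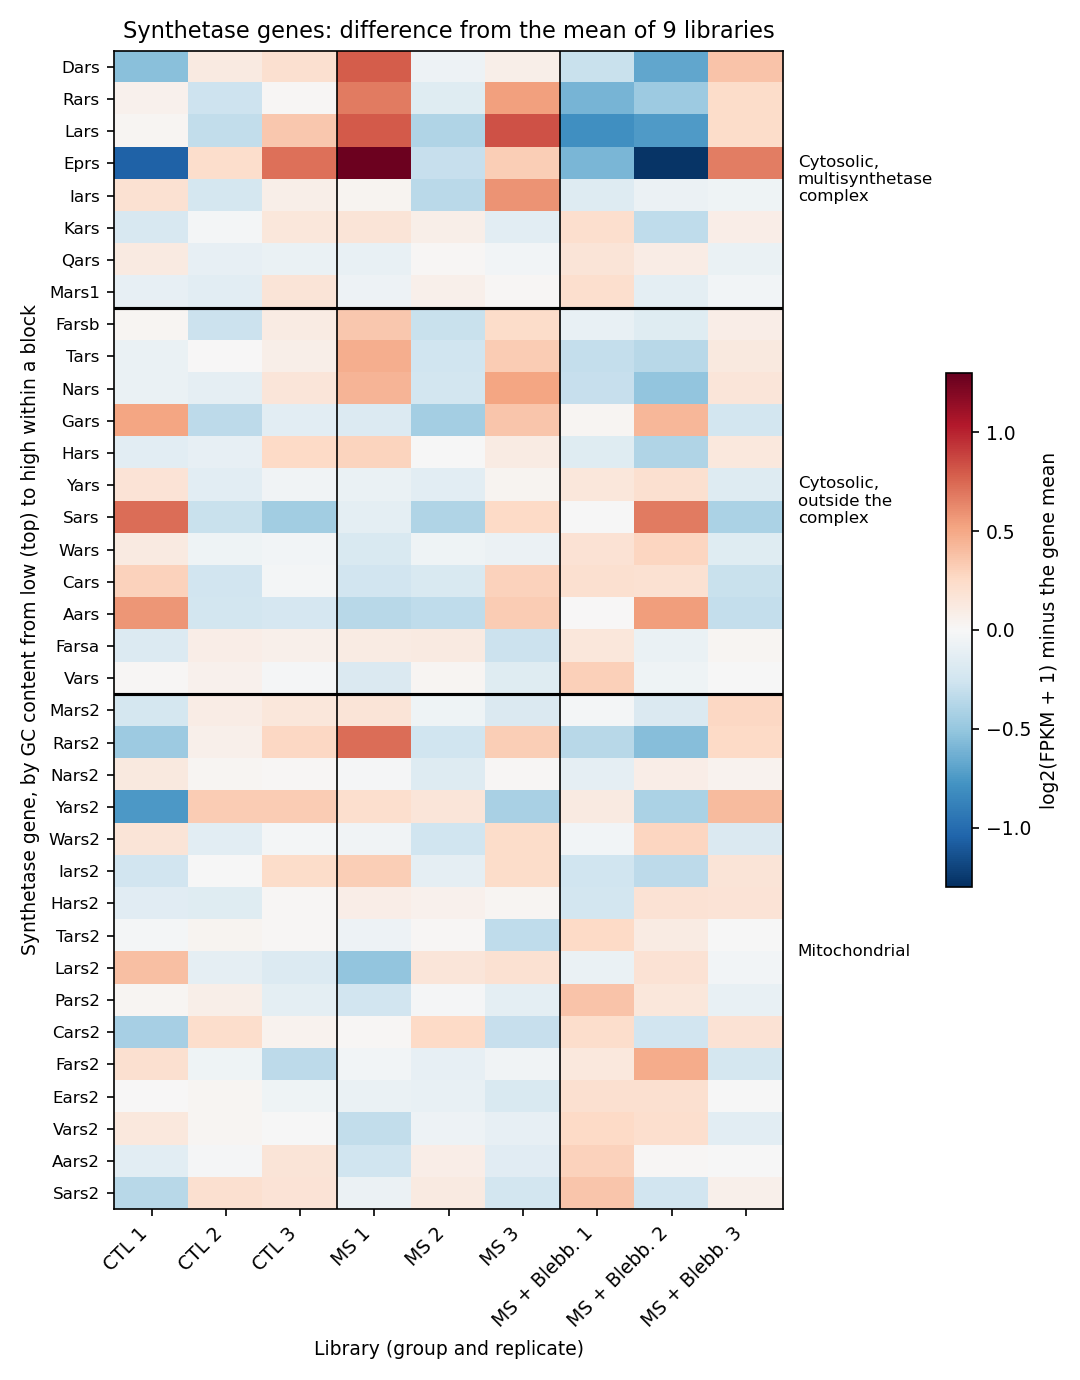
Each row is a synthetase gene and each column a library, and the colour gives log2(FPKM + 1) minus the gene's mean over the 9 libraries. Rows are split into the 8 cytosolic enzymes of the multisynthetase complex, the 12 other cytosolic enzymes and the 16 mitochondrial enzymes, and run from low to high GC content within a block. Sars, Gars and Aars are red in CTL 1, MS 3 and MS + Blebb. 2, while Eprs and Dars are blue in CTL 1 and MS + Blebb. 2 and red in MS 1.

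Among genes that share an amino acid, the cytosolic member was usually the more abundant. Of 13 pairs of namesakes, 11 had a ratio above 1 in all 9 libraries. Mars1 (methionine) over Mars2 had the highest median ratio, 55.4, with a range from 33.9 to 64.4. The leucine and threonine pairs were the exceptions, with the mitochondrial gene higher in all 9 libraries. Lars over Lars2 ran from 0.14 in MS + Blebb. 2 to 0.77 in MS 1, and Tars over Tars2 from 0.35 in MS + Blebb. 1 to 0.86 in MS 3. Ratios moved by more than 3 times between libraries for the leucine, serine and tyrosine pairs. Sars over Sars2 was 67.1, 21.4 and 19.6 in CTL 1 to 3, 29.8, 21.4 and 44.3 in MS 1 to 3, and 23.3, 59.7 and 22.0 in MS + Blebb. 1 to 3. Yars over Yars2 (tyrosine) was 9.05, 3.20 and 3.41 in CTL, 3.59, 3.62 and 6.37 in MS, and 4.54, 7.09 and 2.95 in MS + Blebb. Both ratios were highest in CTL 1, MS 3 and MS + Blebb. 2, and no group stood apart. The alanine, cysteine, isoleucine, methionine and arginine pairs had the same highest libraries. The histidine, leucine, asparagine, threonine, valine and tryptophan pairs did not. The valine pair was the steadiest, with Vars over Vars2 between 6.01 and 8.28.

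**Figure D2:**
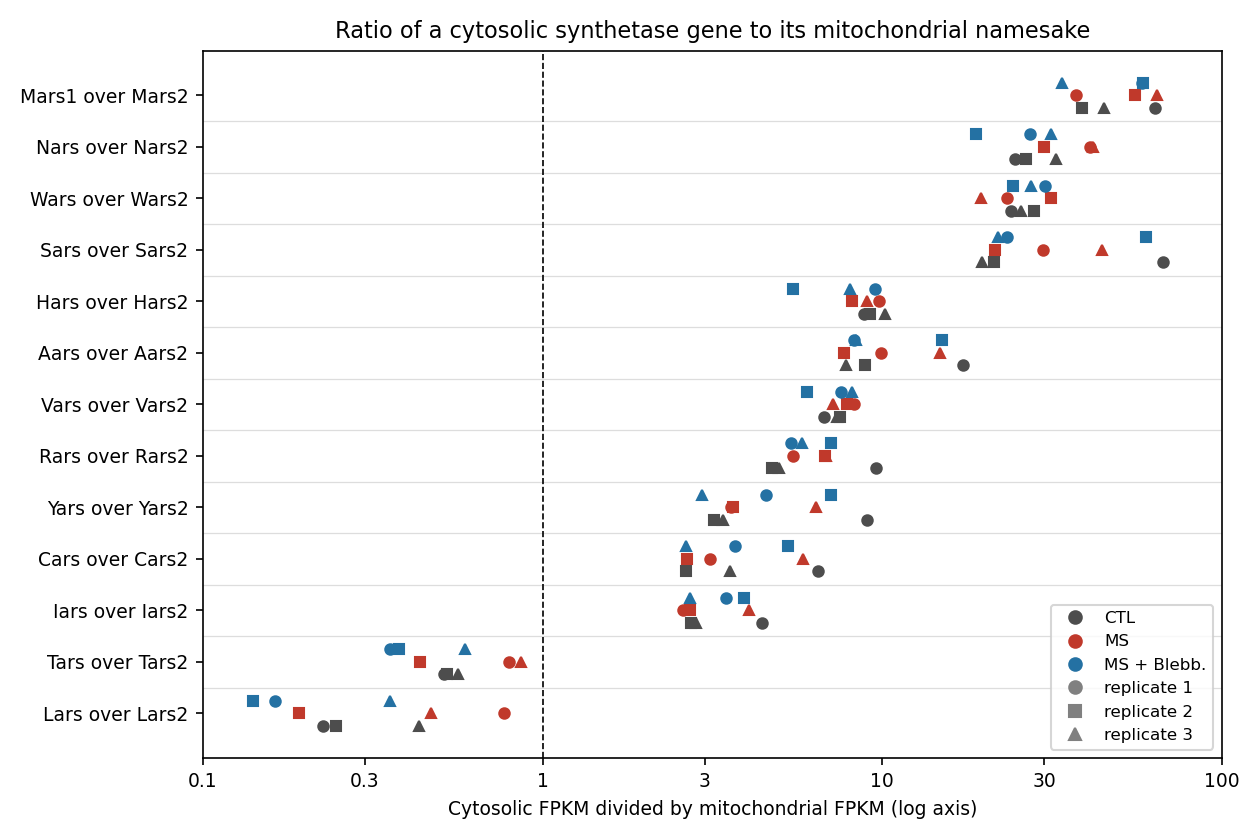
The horizontal log axis gives the FPKM of a cytosolic gene divided by that of its mitochondrial namesake, with 1 point per library, colours for the groups and shapes for the replicates. The leucine and threonine pairs lie left of the dashed line at 1, and the serine pair spreads from 19.6 to 67.1 within CTL.

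Sars, the serine enzyme and the most abundant member, differed by 2.26 times between its highest and lowest library. Sars (chr3:108424865-108445209, − strand) was 523, 259 and 232 FPKM in CTL 1 to 3, 289, 241 and 379 FPKM in MS 1 to 3, and 315, 507 and 238 FPKM in MS + Blebb. 1 to 3. Gars (chr6:55038007-55079500, + strand), the glycine enzyme of both compartments, was 346, 191 and 221 FPKM in CTL, 215, 178 and 312 FPKM in MS, and 246, 327 and 206 FPKM in MS + Blebb. Aars (chr8:111033144-111057664, + strand), the alanine enzyme, was 128, 72.8 and 73.8 FPKM in CTL, 66.7, 68.4 and 109 FPKM in MS, and 86.0, 126 and 69.2 FPKM in MS + Blebb. All 3 genes were highest in CTL 1, MS 3 and MS + Blebb. 2, the libraries in which Atf4 was highest, and their groups overlapped. They were the only cytosolic members with exactly these 3 libraries on top, which is 15.0% of 20 genes against 15.8% of all genes, so the cytosolic set as a whole did not exceed the background in this respect. All 3 are among the 12 cytosolic members listed as ATF4 targets, of which 25.0% thus had these libraries on top, against 0 of the other 8 cytosolic members. The others listed are Cars, Eprs, Iars, Lars, Mars1, Nars, Tars, Wars and Yars. Of the 12, 8 lay above their own mean over the 9 libraries in CTL 1, 11 in MS 3 and 6 in MS + Blebb. 2. The shares of all genes above their mean there were 41.1%, 53.0% and 46.0%. In the deposited values, the listed Eprs, Nars and Tars were lowest in MS + Blebb. 2. The part of the stress response in these levels was not tested.

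The cores of Iars (isoleucine) and Yars lay after the start, at positions 8 and 4. The Sars window was given and held no core. Iars had a range of 0.93 on the log2 scale, as did Aars, and Yars had 0.37. Iars ranged from 34.9 FPKM in MS 2 to 67.6 FPKM in MS 3, and Yars from 49.0 FPKM in MS + Blebb. 3 to 63.5 FPKM in MS + Blebb. 2. Tars, the threonine enzyme, ranged from 12.4 FPKM in MS + Blebb. 2 to 22.9 FPKM in MS 1. In the deposited values, Tars, whose promoter holds the core, thus had its lowest value in a library where Aars and Gars were among their highest. With each library's GC trend removed, as described below, this no longer held. Tars then lay at −0.11 from its mean in MS + Blebb. 2, above MS + Blebb. 1 and MS 2, both at −0.14. Its highest libraries were MS 3 (0.21), MS 1 (0.20) and CTL 1 (0.12), and its log2 range fell from 0.83 to 0.36. The part of the core in these levels was not tested.

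Some genes of the multisynthetase complex and some outside it were highest in MS 1 or MS 3 and low in MS + Blebb. 2. Eprs (chr1:185363044-185428360, + strand), which encodes the joint glutamate and proline enzyme, had the widest range of all 36 members. It was 8.76, 22.8 and 32.3 FPKM in CTL 1 to 3, 48.0, 15.5 and 24.3 FPKM in MS 1 to 3, and 12.4, 7.38 and 31.1 FPKM in MS + Blebb. 1 to 3, a difference of 6.51 times between MS 1 and MS + Blebb. 2. Dars (chr1:128363707-128417368, − strand), the aspartate enzyme, was 23.1, 37.1 and 39.7 FPKM in CTL, 59.8, 32.6 and 36.04 FPKM in MS, and 27.8, 21.0 and 44.6 FPKM in MS + Blebb. Both were highest in MS 1 and low in CTL 1 and MS + Blebb. 2, where Sars, Gars and Aars were high.

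Lars, the leucine enzyme, was the least abundant cytosolic member. It was 8.81, 6.71 and 11.3 FPKM in CTL 1 to 3, 15.8, 6.34 and 16.03 FPKM in MS 1 to 3, and 4.53, 4.75 and 10.3 FPKM in MS + Blebb. 1 to 3. Rars (chr11:35808381-35834506, − strand), the arginine enzyme, was 28.8, 22.7 and 28.1 FPKM in CTL, 44.6, 24.7 and 40.3 FPKM in MS, and 17.8, 19.6 and 32.7 FPKM in MS + Blebb. Nars, the asparagine enzyme and not a member of the complex, was 52.7, 51.3 and 62.2 FPKM in CTL, 76.2, 47.1 and 79.9 FPKM in MS, and 45.1, 38.9 and 62.5 FPKM in MS + Blebb. In each of these 3 genes MS 1 and MS 3 were the highest libraries, and the groups overlapped. MS 2 lay below every CTL library for Lars and Nars and within their range for Rars.

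In the deposited values, Qars, Mars1 and Kars of the same complex varied less than Eprs, Dars, Lars and Rars. Qars (glutamine) had the smallest range of the cytosolic members, with 84.3, 71.7 and 73.0 FPKM in CTL 1 to 3, 72.1, 78.4 and 75.3 FPKM in MS 1 to 3, and 87.3, 82.9 and 73.0 FPKM in MS + Blebb. 1 to 3. Mars1 was 47.8, 46.7 and 57.8 FPKM in CTL, 49.1, 54.1 and 52.1 FPKM in MS, and 59.9, 47.2 and 50.3 FPKM in MS + Blebb. Kars was 69.0, 78.2 and 88.3 FPKM in CTL, 89.8, 84.0 and 72.5 FPKM in MS, and 92.5, 63.0 and 84.8 FPKM in MS + Blebb. Transcripts of a shared complex thus differed in range between 1.22 times for Qars and 6.51 times for Eprs. Kars was lowest in CTL 1, MS 3 and MS + Blebb. 2, and so was Farsa, a subunit of the phenylalanine enzyme.

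**Figure D3:**
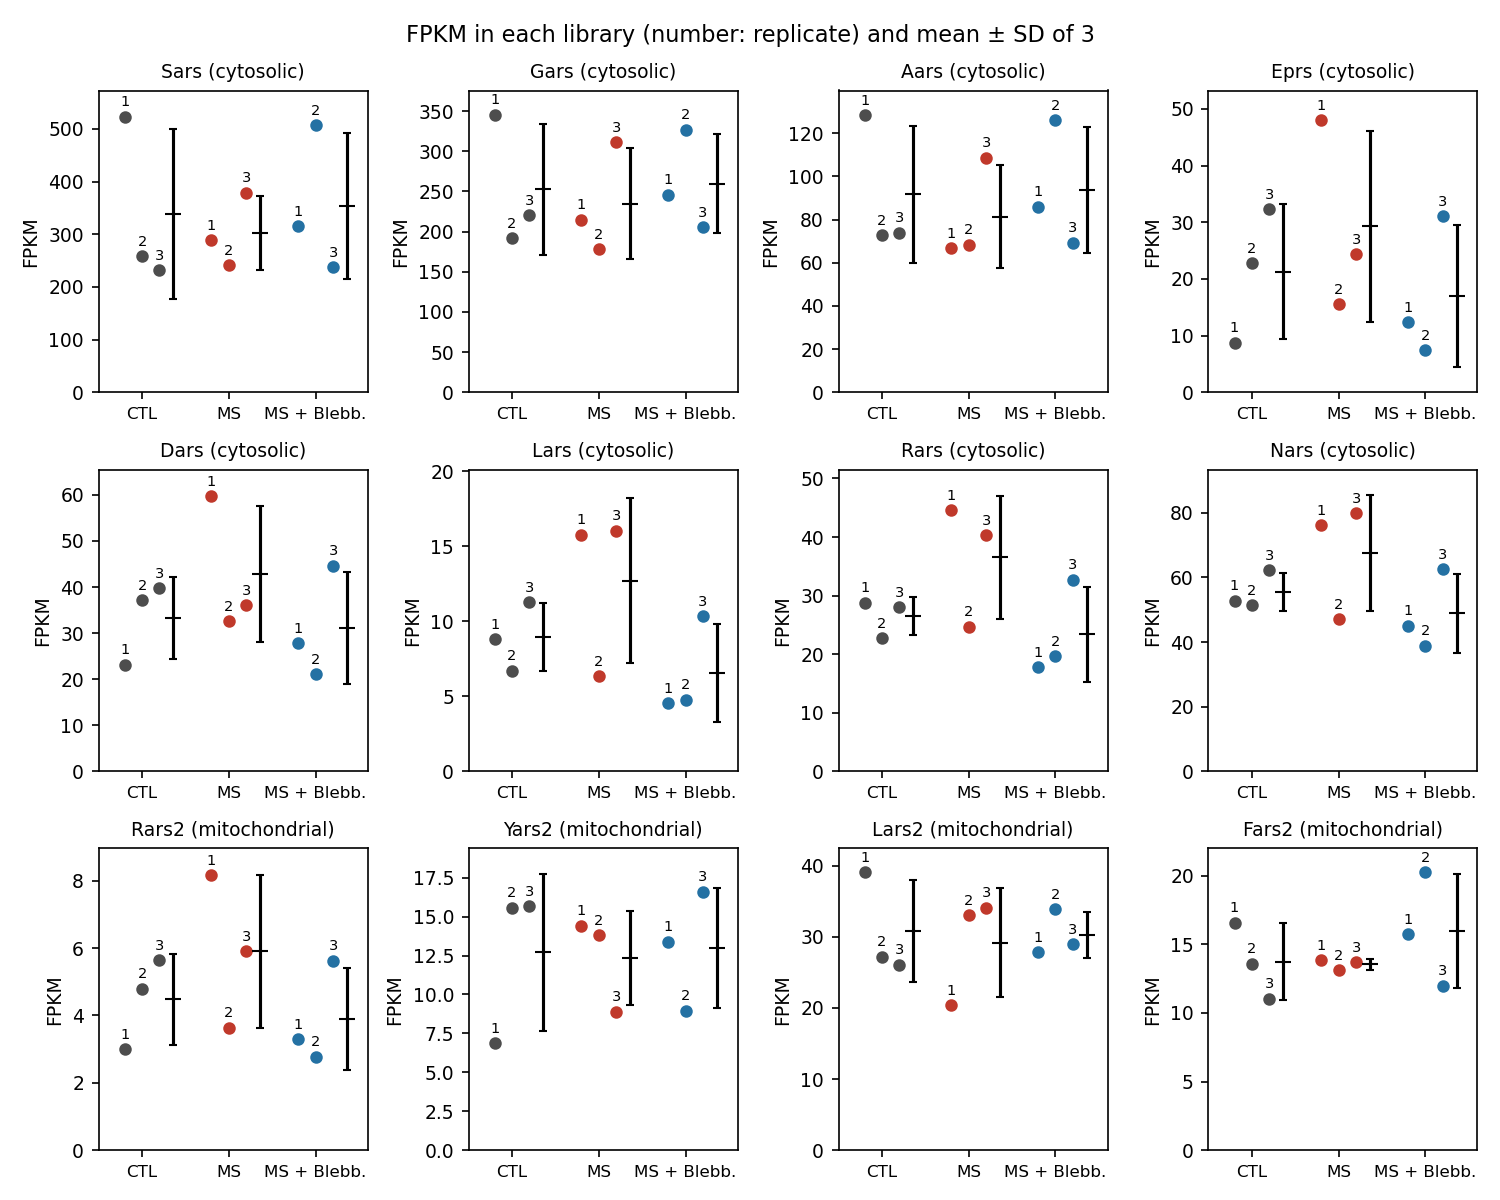
FPKM is given for 12 synthetase genes, with 1 point per library numbered by replicate and the mean ± SD of the 3 libraries of each group in black. Vertical axes start at 0 and differ between panels. CTL 1, MS 3 and MS + Blebb. 2 lead for Sars, Gars and Aars, while MS 1 leads for Eprs, Dars and Rars2.

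Mitochondrial enzymes were less abundant, and which class varied more depended on the processing. The median range over the 9 libraries was 0.60 on the log2 scale for the 16 mitochondrial genes, 0.76 for the 20 cytosolic genes and 0.68 for all genes tested. With each library's trend with GC content removed, as described below, the order turned, with 0.67 for the mitochondrial and 0.59 for the cytosolic genes. The added 1 FPKM narrows the ranges of the 7 mitochondrial genes with means under 5 FPKM. Tars2 (threonine) was the most abundant, with 29.7, 31.2 and 30.6 FPKM in CTL 1 to 3, 28.9, 30.8 and 24.01 FPKM in MS 1 to 3, and 36.5, 32.9 and 30.2 FPKM in MS + Blebb. 1 to 3. Mars2, needed to start mitochondrial proteins with methionine, was the least abundant, with 0.754, 1.21 and 1.28 FPKM in CTL, 1.32, 0.977 and 0.809 FPKM in MS, and 1.03, 0.806 and 1.48 FPKM in MS + Blebb.

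Rars2 (chr4:34614957-34660167, + strand), the mitochondrial arginine enzyme, had the widest range of its class. It was 2.99, 4.79 and 5.64 FPKM in CTL 1 to 3, 8.15, 3.64 and 5.91 FPKM in MS 1 to 3, and 3.29, 2.77 and 5.62 FPKM in MS + Blebb. 1 to 3. MS 1 was again the highest and MS + Blebb. 2 the lowest, as for Eprs. Yars2 (chr16:16302965-16309640, + strand), the tyrosine enzyme, was 6.88, 15.6 and 15.6 FPKM in CTL, 14.4, 13.8 and 8.88 FPKM in MS, and 13.4, 8.96 and 16.6 FPKM in MS + Blebb. Yars2 was lowest in CTL 1, MS 3 and MS + Blebb. 2, the reverse of Sars. In the deposited values Cars2 (cysteine), Mars2 and Sars2 had the same 3 lowest libraries, which makes 4 of 16 mitochondrial genes (25.0%) against 16.1% of all genes. With each library's GC trend removed, as described below, Yars2, Cars2 and Sars2 kept these 3 lowest libraries and Mars2 did not. Mars2 was then highest in MS + Blebb. 2 (0.42 from its mean) and CTL 1 (0.37) and lowest in MS 1 (−0.49).

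Lars2 and Fars2 were both high in CTL 1 and MS + Blebb. 2. Lars2 (chr9:123366927-123462666, + strand), the leucine enzyme, was 39.1, 27.2 and 26.1 FPKM in CTL 1 to 3, 20.4, 33.1 and 34.1 FPKM in MS 1 to 3, and 27.8, 33.9 and 29.0 FPKM in MS + Blebb. 1 to 3. In the deposited values its highest libraries were CTL 1, MS 3 and MS + Blebb. 2, as for Sars and Wars2. That makes 2 of 16 mitochondrial genes (12.5%) against 15.8% of all genes. With each library's GC trend removed, MS 2 (0.22 from the mean) ranked above MS 3 (0.17) and MS + Blebb. 2 (0.15) for Lars2. For Wars2, MS + Blebb. 1 (0.130) then ranked above MS 3 (0.125). Lars2 was lowest in MS 1, where the cytosolic Lars was close to its highest. Fars2 (chr13:36117412-36726280, + strand), the phenylalanine enzyme, was 16.6, 13.6 and 11.0 FPKM in CTL, 13.8, 13.1 and 13.7 FPKM in MS, and 15.7, 20.3 and 11.97 FPKM in MS + Blebb. The 2 members with the smallest ranges of the class were Nars2 (asparagine) and Ears2 (glutamate).

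Nars2 was 2.15, 1.93 and 1.91 FPKM in CTL 1 to 3, 1.86, 1.57 and 1.92 FPKM in MS 1 to 3, and 1.66, 2.06 and 1.99 FPKM in MS + Blebb. 1 to 3. Ears2 was 4.54, 4.63 and 4.34 FPKM in CTL, 4.20, 4.20 and 3.82 FPKM in MS, and 5.39, 5.40 and 4.52 FPKM in MS + Blebb. In the deposited values, every MS library of Ears2 lay below every library of the other groups. With each library's GC trend removed, as described below, MS 1 (0.04 from the mean) lay above every CTL library and above MS + Blebb. 2 (0.02). The remaining mitochondrial members had ranges between 0.43 (Hars2) and 0.72 (Sars2) on the log2 scale. Iars2, at 10.8 to 17.8 FPKM, shared with Eprs and Rars2 a highest value in MS 1 and a lowest value in MS + Blebb. 2. Aars2, Pars2 (proline) and Vars2 were lowest in MS 1 and highest in MS + Blebb. 1. Of the remaining cytosolic members, Vars and Wars were lowest in MS 1, at 75.7 and 68.8 FPKM, and Farsb, the other subunit of the phenylalanine enzyme, and Hars were highest there, at 46.6 and 36.7 FPKM.

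In several libraries the levels followed the GC content of the transcripts. GC content was 41.2% to 60.9% among cytosolic members, with Dars lowest and Vars highest, and 38.8% to 60.1% among mitochondrial members, with Mars2 lowest and Sars2 highest. The medians were 50.9%, 49.7% and, over all genes tested with a value, 50.4%. Across the 36 members, the correlation of GC content with the difference from the gene's mean was −0.61 in MS 1, −0.53 in MS + Blebb. 3 and 0.66 in MS + Blebb. 1. Over 9752 genes the same correlations were −0.65, −0.55 and 0.56. Members and all genes differed more in MS 2 (0.33 against 0.07), MS 3 (−0.38 against −0.17) and CTL 2 (0.04 against −0.19). The genes of a library share its preparation and are not independent, so no test was made. The members that were high in MS 1, such as Eprs, Lars, Dars, Rars and Rars2, had a GC content between 41.2% and 47.2%, below both class medians. With each library's GC trend removed, the range of Dars fell from 1.46 to 0.33 and that of Rars2 from 1.28 to 0.44 on the log2 scale, while Eprs kept 2.10 of 2.55 and Sars 1.16 of 1.17. Ranges narrowed for 16 of 20 cytosolic and 9 of 16 mitochondrial genes and widened for the others. Nars2 widened from 0.29 to 0.85 and so no longer had the smallest range of its class, Mars2 widened from 0.50 to 0.91, Wars2 (tryptophan) from 0.54 to 0.87 and Tars2 from 0.58 to 0.79.

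**Figure D4:**
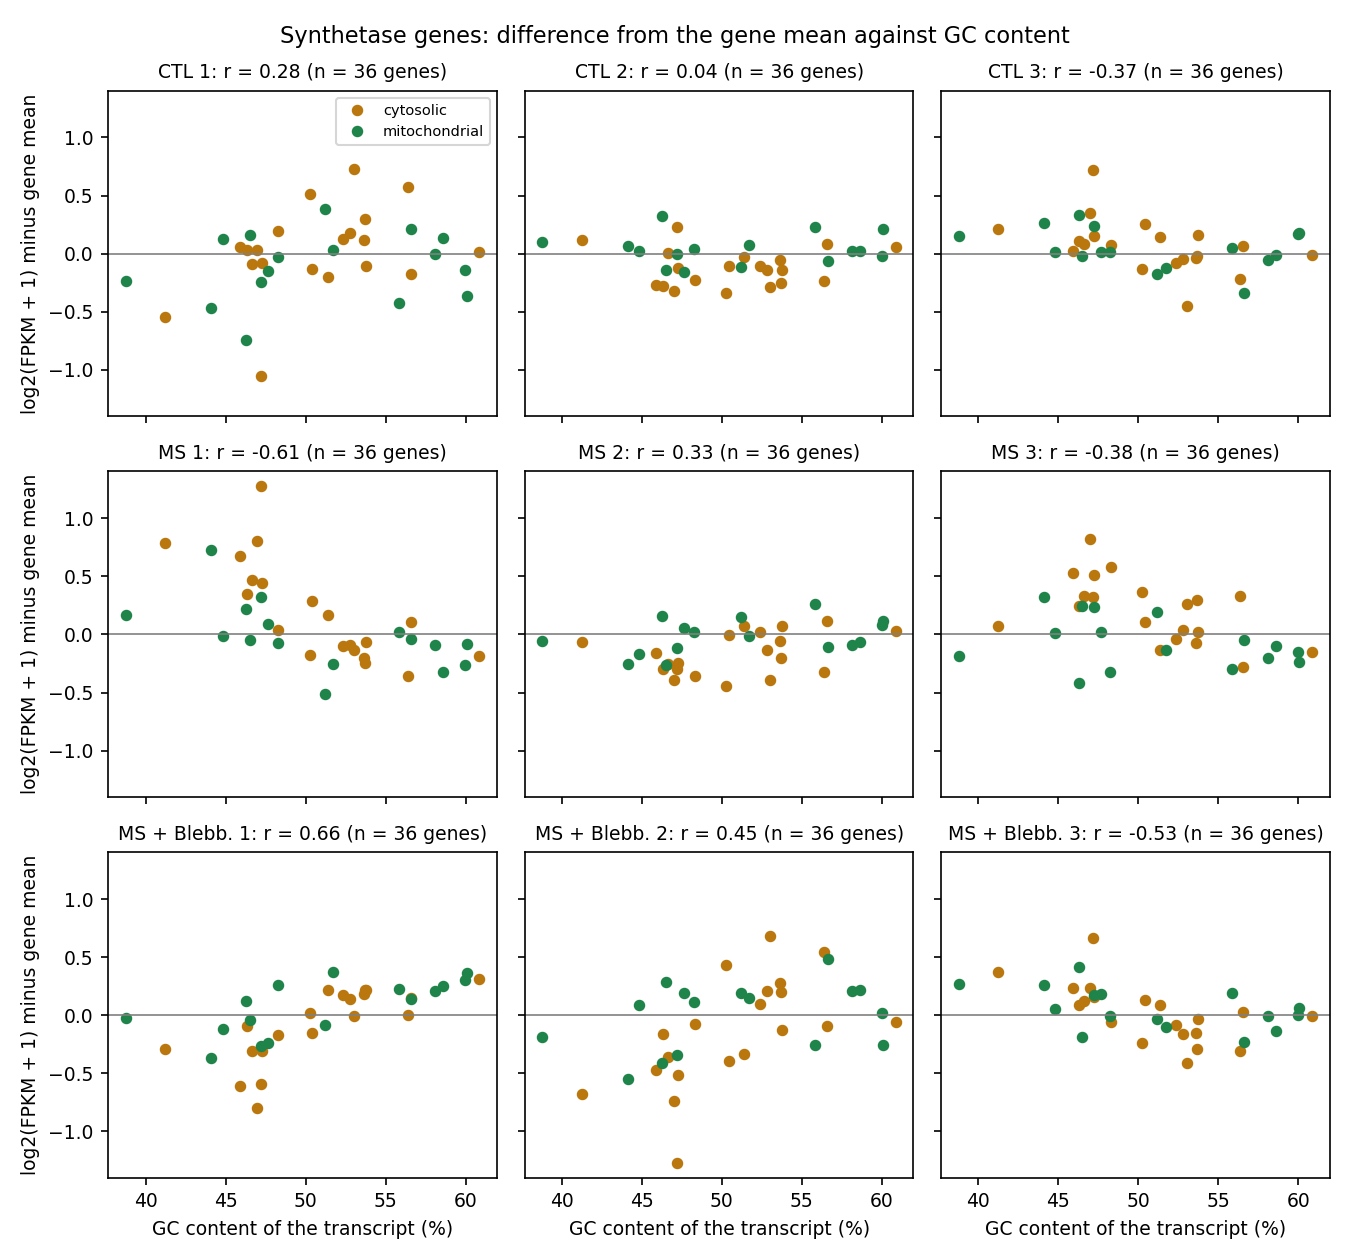
Each panel is a library and each point a synthetase gene, with the GC content of its transcript (%) on the horizontal axis and log2(FPKM + 1) minus the gene's mean on the vertical axis. Points fall from left to right in MS 1 (r = −0.61) and rise in MS + Blebb. 1 (r = 0.66).

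The comparison of MS with CTL addressed the effect of cyclic straining. No synthetase gene passed the test, 0 of 36 at an adjusted p under 0.05, as for 0% of 10109 genes (limma with Benjamini-Hochberg adjustment). At an unadjusted p under 0.05 there were 0 of 36 members and 16 genes in all (0.158%). The cytosolic genes were split, with 11 higher and 9 lower and a median log2 fold change of 0.05, against 5 higher and 11 lower and a median of −0.05 for the mitochondrial genes and −0.00 for all genes. Among all genes, 49.5% were higher. Of the 8 genes of the multisynthetase complex, 7 were higher in MS, with a median of 0.21 and none past the test. With each library's GC trend removed, all 8 were higher with a median of 0.11, and the log2 fold change of Dars went from 0.34 to 0.12 and that of Rars from 0.41 to 0.30. Fold changes are on the log2(FPKM + 1) scale, which understates those of low genes.

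The cytosolic members with the smallest p in this comparison were Rars and Nars. Rars averaged 26.5 ± 3.31 FPKM over the CTL libraries and 36.5 ± 10.5 FPKM over the MS libraries (SD, n = 3), which gave a log2 fold change of 0.41 ± 0.27 (SE) with an adjusted p of 1.00 in limma. Nars averaged 55.4 ± 5.94 and 67.7 ± 17.98 FPKM, a log2 fold change of 0.25 ± 0.23 with an adjusted p of 1.00 in limma. MS 2 lay below every CTL library for Nars and below all but CTL 2 for Rars, so that the larger MS mean rested on MS 1 and MS 3. Without MS 2, limma gave 3 members at an unadjusted p under 0.05, Rars, Lars and Nars, with 1.14% of all genes and a smallest adjusted p of 0.999 among members.

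The mitochondrial members with the smallest p were Vars2 and Tars2. Vars2, the valine enzyme, was 13.0, 11.9 and 11.6 FPKM in CTL 1 to 3 and 9.14, 11.2 and 10.8 FPKM in MS 1 to 3. Its log2 fold change was −0.21 ± 0.15 with an adjusted p of 1.00 in limma. Tars2 had a log2 fold change of −0.13 ± 0.13 with an adjusted p of 1.00 in limma. In the deposited values, the ranges of CTL and MS did not overlap for 4 of 36 members, against 3.17% of all genes. Wars (tryptophan) was 85.8, 76.04 and 77.3 FPKM in CTL 1 to 3 and 68.8, 76.02 and 75.0 FPKM in MS 1 to 3, so that its groups were parted by the narrowest of gaps. Ears2 and Vars2 were also lower in every MS library, and Hars2 (histidine) was higher, with 3.06, 3.01 and 3.52 FPKM in CTL 1 to 3 and 3.76, 3.67 and 3.56 FPKM in MS 1 to 3. With each library's GC trend removed, the groups of Wars, Ears2 and Hars2 overlapped, and those of Vars2 did not. With CTL 1, MS 3 and MS + Blebb. 2 left out together, the median was 0.04 for cytosolic and −0.07 for mitochondrial genes, with 0 members at an unadjusted p under 0.05.

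The comparison of MS + Blebb. with MS addressed the effect of myosin inhibition, if the third group was strained as the paper names it. The labels name blebbistatin alone, and if that group was not strained, the comparison differs in straining as well. Again 0 of 36 members and 0% of 10109 genes passed the adjusted threshold in limma. At an unadjusted p under 0.05 there was 1 member, Rars, and 126 genes in all (1.25%). Cytosolic genes were even, 10 higher and 10 lower with a median log2 fold change of −0.02, and 13 of 16 mitochondrial genes were higher with a median of 0.07, against −0.01 for all genes. Among all genes, 49.0% were higher. In the multisynthetase complex 6 of 8 genes were lower, with a median of −0.33. With the GC trend removed 7 of 8 were lower and the median was −0.09. The comparison shares the MS libraries with the preceding one, so opposite signs in the pair are not independent.

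Rars averaged 36.5 ± 10.5 FPKM over the MS libraries and 23.4 ± 8.14 FPKM with blebbistatin (SD, n = 3), a log2 fold change of −0.63 ± 0.27 (SE) with an adjusted p of 0.897 in limma. Lars was 12.7 ± 5.52 and 6.54 ± 3.28 FPKM, a log2 fold change of −0.85 ± 0.39 with an adjusted p of 0.897 in limma. Rars and Lars in MS + Blebb. 3 lay above their MS 2 values, and the groups overlapped. With the GC trend removed the log2 fold changes were −0.41 for Rars and −0.67 for Lars, and without CTL 1, MS 3 and MS + Blebb. 2 they were −0.44 and −0.49, with 0 members at an unadjusted p under 0.05 in either case.

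Ears2 charges the mitochondrial tRNAs for both glutamate and glutamine, the latter to be converted by an amidotransferase. In the deposited values it was higher in every MS + Blebb. library than in any MS library. It was the 1 member of 36 whose groups did not overlap, against 3.73% of all genes, with a log2 fold change of 0.26 ± 0.13 and an adjusted p of 0.897 in limma. With the GC trend removed its log2 fold change was 0.13, and the groups overlapped, with MS 1 at 0.04 from the mean and MS + Blebb. 2 at 0.02. Tars2 had a log2 fold change of 0.25 ± 0.13 with an adjusted p of 0.897 in limma, and its MS + Blebb. 3 value of 30.2 FPKM lay below that of MS 2. Single libraries decided the count at an unadjusted p under 0.05. Without MS + Blebb. 3 it was 12 of 36 members (33.3%) beside 9.24% of all genes, and without MS 2 it was 5 of 36 (13.9%) beside 5.92%, with smallest adjusted p-values among members of 0.450 and 0.747 in limma. Leaving out any other single library gave 0 members.

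Between MS + Blebb. and CTL, which differ in both treatments as the paper names them, 0 of 36 members and 0% of 10109 genes passed the adjusted threshold in limma, and 0 members and 9 genes (0.089%) had an unadjusted p under 0.05. Cytosolic genes were split into 11 higher and 9 lower with a median log2 fold change of 0.02, and 12 of 16 mitochondrial genes were higher with a median of 0.07, against −0.01 for all genes. Among all genes, 46.0% were higher. The groups overlapped for all 36 members, and did not overlap for 2.08% of all genes. These libraries also served in the preceding comparisons. Lars averaged 8.92 ± 2.28 FPKM over the CTL libraries and 6.54 ± 3.28 FPKM with blebbistatin (SD, n = 3), a log2 fold change of −0.45 ± 0.39 (SE) with an adjusted p of 1.00 in limma. Nars, with −0.20 ± 0.23, Ears2, with 0.15 ± 0.13, and Fars2, with 0.19 ± 0.20, were the other members with the smallest p, each with an adjusted p of 1.00 in limma. Without CTL 1, MS 3 and MS + Blebb. 2 the medians were 0.07 for cytosolic and 0.05 for mitochondrial genes.

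**Figure D5:**
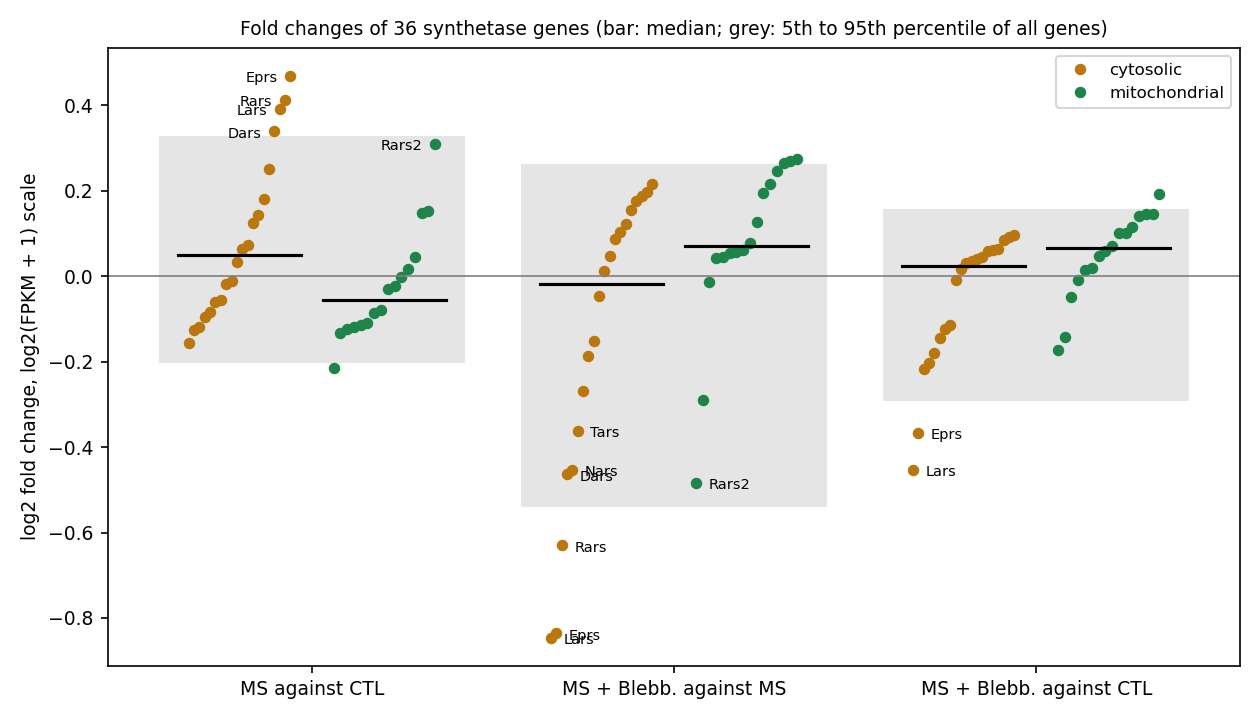
Each point is the log2 fold change of a synthetase gene on the log2(FPKM + 1) scale in 1 of the 3 comparisons, sorted within its class, with the class median as a black bar and the 5th to 95th percentile of all genes tested in grey. Eprs, Rars, Lars and Dars lie above the grey band and Vars2 below it in MS against CTL, Ears2, Pars2 and Vars2 lie above it and Lars, Eprs and Rars below it in MS + Blebb. against MS, and Fars2 lies above it and Eprs and Lars below it in MS + Blebb. against CTL, although none of the 36 genes passed the test.

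Genes that work beside the synthetases were followed with them, and none of those named here passed the adjusted threshold in any of the 3 comparisons in limma. Of the 3 scaffold proteins of the multisynthetase complex, Aimp1 was highest in MS 1 (43.0 FPKM), as were Dars, Eprs and Rars, while Aimp2 and Eef1e1 had CTL 1, MS 3 and MS + Blebb. 2 as their 3 lowest libraries. Eef1a1, the elongation factor that carries charged tRNA to the cytosolic ribosome, ranged from 4774 to 7740 FPKM and was highest in CTL 1, MS 3 and MS + Blebb. 2. Trnt1, which adds the CCA end to tRNAs of both compartments, ranged from 6.03 FPKM in CTL 1 to 26.2 FPKM in MS 1. The mitochondrial elongation factor Tufm stayed between 85.0 and 114 FPKM. In 3 of the 4 mitochondrial elongation factors, CTL 1, MS 3 and MS + Blebb. 2 were the 3 lowest libraries, against 16.1% of all genes. The 12 genes of the integrated stress response were split into 7 higher and 5 lower in MS against CTL, with a median log2 fold change of 0.03, and 8 were higher and 4 lower in MS + Blebb. against MS, with a median of 0.17. All 12 were higher in MS + Blebb. than in CTL, against 46.0% of all genes, with a median of 0.16 and a smallest adjusted p of 1.00 in limma. These genes are not independent, since 9 of the 12 had CTL 1, MS 3 and MS + Blebb. 2 as their highest libraries. The 12 cytosolic synthetases listed as ATF4 targets had medians of −0.01, 0.05 and 0.04 in the same order, and 6, 7 and 7 of them were higher.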

How the data were processed

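RNA of 9 B16 libraries (3 CTL, 3 MS and 3 MS + Blebb.) was extracted with TRIzol and prepared with the SMARTER mRNA kit, per the labels. The authors deposited gene-level FPKM for each library. In the CTL 1 file a sample name stands where the others name the unit, and its values were read as FPKM too. The submitters' processing notes name GRCm38 and mm10. The aligner, counter and annotation are not given in the sources used here. Low values shared no common step between libraries (at most 1.61% of ratios per bin of 0.02 log2), so depth stayed unknown and no counting intervals are given.

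Genes whose mean reached 1 FPKM were fitted as log2(FPKM + 1) in limma 3.58.1 (R 4.3.3), with lmFit on 3 groups, eBayes with a mean-variance trend, two-sided tests and Benjamini-Hochberg adjustment over 10109 genes at 0.05. The fit was tested on simulated data with independent noise for each gene and library. The libraries here share trends across genes, so that test does not show how the fit behaves on them. Gene positions and GC content (longest transcript, 36 of 36 members and 96.5% of genes tested) came from GENCODE M21, build GRCm38. Alternatives were a pseudocount of 0.1, other minimums and scalings, no trend, fewer groups, a replicate block, removal of each library's GC trend (loess, span 0.5) and left-out libraries.

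The members, lists, motifs and left-out libraries were chosen with earlier results of these data known. Values were given for the members with the largest and smallest ranges and the highest and lowest means of each class, for Gars, Kars and Eprs, and tests for the 2 of each class with the smallest p in a comparison. Other members named were chosen after their values were seen. The list of mitochondrial charging partners is not reported here.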

Additional observations from a re-analysis of the deposited data

How the results depend on the processing

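The count of members past the adjusted threshold was 0 in each of the 3 comparisons under every alternative run, and the same was true of all genes except without MS replicate 2, where 1 gene, not a synthetase, was called in each of the comparisons that involve MS. In MS + Blebb. against MS, the members at an unadjusted p under 0.05 numbered 1 as reported, 0 with no minimum, with the same total FPKM, with only the groups compared, with the GC trend removed and with 3 libraries left out together, and 2 with median-of-ratios factors and with quantile normalization. They numbered 0 to 12 with single libraries left out, and 0 to 3 in MS against CTL. The median log2 fold change of mitochondrial genes in MS + Blebb. against MS, 0.07 as reported, was 0.13 at a minimum mean of 5 FPKM, 0.18 after quantile normalization, 0.13 with the GC trend removed and 0.070 to 0.18 with single libraries left out. In MS against CTL it was −0.11 to −0.021 with single libraries left out, against −0.05. The cause was not tested.

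Replicate numbers did not pair the libraries, since correlations of same-numbered libraries across genes ran from −0.78 to 0.84. With a replicate block, 3 members (Rars, Lars and Nars) had an unadjusted p under 0.05 in MS + Blebb. against MS and 0 in the other comparisons. With 3 libraries per group and unknown depth, smaller differences could not be shown. Of all genes, 0.158%, 1.25% and 0.089% had an unadjusted p under 0.05 in limma in the 3 comparisons, in the order above. Those shares lie below the 0.05 that this threshold gives on average when groups do not differ. The fit was thus sparing with calls here, and the absence of calls does not show that groups were equal. The reason was not tested.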
